A study of Mus musculus with 17 samples.

Results

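The genes described here serve ion and water transport in colonocytes, the absorptive cells that line the colon: 10 genes of the 27179 in the count tables, chosen by symbol through their NCBI gene numbers. They are the carbonic anhydrases Car1, Car2 and Car4, the sodium transport genes Slc9a3, Scnn1a and Fxyd4, the anion exchanger Slc26a3, the water channel Aqp8, and the peptide genes Guca2a and Guca2b. All 10 had a gene number in the tables, and all 10 passed the filter on low counts in each fit. RNA was sequenced from preparations labelled colon macrophages, taken from C57BL/6(h-2b) mice of 8 weeks that were either wild-type (WT) or deficient in MCJ (KO), a mitochondrial protein encoded by Dnajc15. In the condition named NN no treatment was named (3 WT and 2 KO libraries). In NP the mice received DSS (dextran sulfate, which damages the epithelial lining) for 6 days (3 and 3). In PP a broad-spectrum antibiotic for 7 days came before the 6 days of DSS (3 and 3). Within a group each library carries its own mouse number, but mouse numbers recur between the KO NN and KO NP labels. Whether these are the same mice is not said. The labels name neither the sex nor how the deficiency was made, and the protocols name no step that sorts cells. P-values take each library as a separate mouse and measure the spread between these libraries.

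The colon recovers salt and water from its contents. At the surface of the epithelium a sodium-proton exchanger (Slc9a3) and a chloride-bicarbonate exchanger (Slc26a3) work side by side, and carbonic anhydrases supply both with protons and bicarbonate. In the distal colon a sodium channel (Scnn1a is its alpha subunit) takes up more sodium, a sodium pump on the other side of the cell drives the whole process, and small FXYD proteins tune that pump. Guanylin (Guca2a) and uroguanylin (Guca2b) are peptides that are released into the lumen, bind guanylate cyclase C and turn the tissue from absorption towards secretion.

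The libraries were deep, at 29194744 to 37083344 counts each, and mitochondrially encoded genes took 23.1 to 50.4% of them. By markers, epithelial RNA outweighed that of the labelled cell type. A sum of 9 pan-epithelial markers (such as Epcam and Krt8) ran from 5513 to 21060 CPM (read counts on a common library size, scaled with TMM factors), while a sum of 10 macrophage markers (such as Adgre1 and Csf1r) ran from 9.54 to 1184 CPM. All 10 macrophage markers had counts in each group. The epithelial sum was 18820 ± 2124 CPM in WT NN, 16060 ± 95.02 in KO NN, 11950 ± 1134 in WT NP, 11670 ± 1106 in KO NP, 7069 ± 1943 in WT PP and 8584 ± 2868 in KO PP (mean ± SD). Macrophage markers summed to 15.8 ± 6.32 CPM in WT NN and 23.8 ± 1.87 in KO NN, 32.7 ± 8.02 and 198 ± 144 in NP, then 858 ± 558 and 735 ± 122 in PP. Neutrophil markers (7 genes) summed to 1.33 ± 0.450 CPM in WT NN and 3.58 ± 1.03 in KO NN (Cxcr2 at 0 in both, Ltf in KO NN), 454 ± 141 and 348 ± 113 in NP, then 854 ± 567 and 2382 ± 2205 in PP, where KO replicate 23 held 4918. In WT PP, replicate 11 stood apart with 214 CPM of macrophage markers against 1176 and 1184. Fewer epithelial cells in a preparation and less transcript in each cell cannot be told apart in such data, and the part of this shift in the values below was measured only by the second scale described further on. Dnajc15 stood at 17.5 to 52.6 CPM in WT and 0.508 to 3.34 CPM in KO libraries. Xist, the transcript of the inactive X chromosome, had 1100 to 7950 counts in 4 of the 5 NN libraries and in 1 of the other 12 (3822 counts), and 0 to 9 counts in the rest, so its level moves with the condition. Its part in the results was not tested.

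The members covered a wide range of abundance. Per kilobase of exon, WT NN libraries held 7016 ± 1230 CPM of Car1 and 5405 ± 1014 of Guca2a, and the libraries of these leading genes overlapped. Car2 followed at 880 ± 241 CPM per kilobase, apart from both neighbours. Car4 (279.9 ± 73.4), Fxyd4 (133 ± 94.5), Slc26a3 (100.1 ± 23.99), Aqp8 (71.6 ± 28.98) and Guca2b (30.8 ± 18.9) came next, each overlapping the one before it. Scnn1a (7.24 ± 2.00) and Slc9a3 (1.03 ± 0.908) were the lowest and did not overlap their neighbours. In PP the top of the order stayed Car1 then Guca2a in both genotypes. The lower end changed: per kilobase Fxyd4 took the eighth place, at 4.27 ± 4.03 CPM in WT PP and 4.80 ± 7.05 in KO PP. It then overlapped Aqp8 and Slc9a3. Together the 10 genes took 0.948 to 1.73% of all counts in NN libraries and 0.371 to 0.854% in PP libraries, and Car1 alone made up 53.0 to 83.3% of the members' counts over all libraries.

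**Figure D1:**
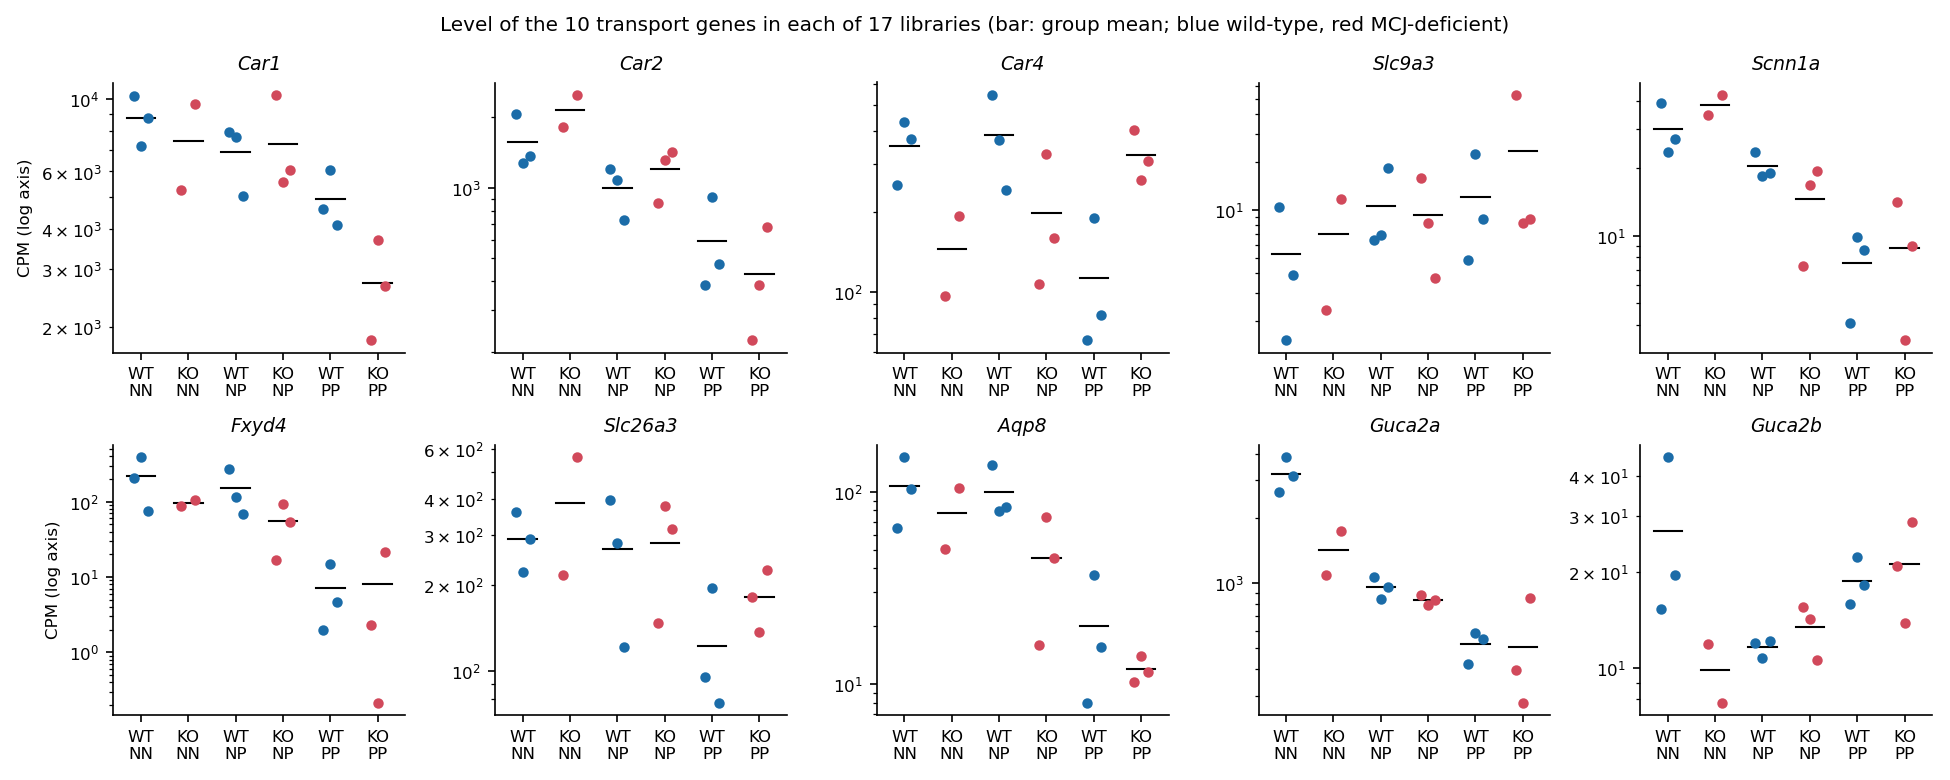
Level of each member in CPM (log axis) in the 17 libraries, by genotype and condition; points are libraries, bars are group means, blue is wild-type and red is MCJ-deficient. Fxyd4 in WT runs from 74.9 to 387 CPM in NN down to 1.99 to 14.7 in PP, while Guca2b and Slc9a3 show no such fall.

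The widest change came in PP, antibiotic and then DSS. Against NN, 6 of the 10 members fell in WT mice and 5 of 10 fell in KO mice, and none rose (edgeR quasi-likelihood test, Benjamini-Hochberg adjusted p under 0.05 over all genes). Over all 16958 genes tested, 7.31% fell and 12.8% rose in that WT comparison, and 3.77% fell and 6.52% rose in the KO one. The members' median log2 fold change was -1.53 in WT and -1.47 in KO mice, beside 0.27 and 0.06 for all genes. The members were chosen with earlier results of these data known, so this gap is only a description. DSS alone (NP against NN) lowered 1 of 10 members in WT and 0 of 10 in KO mice, where 0.195% and 0.0354% of genes fell and 2.25% and 2.04% rose. In that KO comparison 2 members had an unadjusted p under 0.05, as had 1402 of the 16958 genes, and DESeq2 called no member. An edgeR fit of only the groups compared called Scnn1a lower (adjusted p = 0.0424), among 885 genes higher and 144 lower of 14985. PP against NP lowered 3 of 10 in WT and 1 of 10 in KO mice, where 0.926% and 0.389% of genes fell and 3.49% and 1.34% rose. The NN libraries enter both comparisons against NN, and the NP libraries enter both comparisons of NP, so these counts are not independent of each other. Each condition was deposited as its own table, and condition and table cannot be told apart.

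Car1, a cytosolic carbonic anhydrase abundant in the colon and in red blood cells, stood at 10250, 7190 and 8762 CPM in the WT NN libraries. In WT NP it stood at 7942, 7660 and 5029 CPM, and in WT PP at 4593, 6057 and 4110. KO mice gave 5257 and 9656 CPM in NN, 10330, 5556 and 6044 in NP, then 1815, 3697 and 2667 in PP. The PP libraries lay below all NN libraries in both genotypes, and in KO mice below all NP libraries as well. The log2 fold change of PP against NN was -0.83 (SE 0.33; edgeR adjusted p = 0.0906) in WT and -1.45 (SE 0.37; adjusted p = 0.0164) in KO mice. PP against NP fell by 1.42 on the log2 scale in KO mice (SE 0.34; adjusted p = 0.0452), a call that was lost without any 1 of the 6 libraries and when only the groups compared were fitted. The KO call against NN was lost without KO NN replicate 14 or KO PP replicate 22. With only the groups compared in the edgeR fit that call was lost too (adjusted p = 0.0706). Red cell markers summed to 755 to 11590 CPM in KO PP and to 4.71 to 347 CPM elsewhere. All 6 of 6 measured markers were present in KO PP, and Slc4a1 was at 0 in the other groups. By group, RNA of red cells was thus highest where Car1 was lowest. Within KO PP the order differed: replicates 22, 23 and 24 held 7595, 11590 and 755 CPM of red cell markers beside 1815, 3697 and 2667 of Car1. The part of red cell RNA in the Car1 level was not tested.

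Car2, the fast cytosolic carbonic anhydrase of many tissues, showed the same order of conditions. WT libraries held 2068, 1281 and 1369 CPM in NN, 1200, 1077 and 729 in NP, then 384.5, 917 and 473 in PP. KO libraries held 1824 and 2499 CPM in NN, 862, 1316 and 1419 in NP, then 224, 386 and 679 in PP. No NP or PP library reached the lowest NN library of its genotype. PP against NN fell by 1.41 in WT (log2, SE 0.39; edgeR adjusted p = 0.0173) and by 2.33 in KO mice (SE 0.43; adjusted p = 0.00185). The KO call held without each of the 5 libraries. The WT call was lost without WT NN replicate 1 or WT PP replicate 10 or 12 (adjusted p up to 0.0896) and when only the groups compared were fitted. In KO mice PP against NP gave -1.48 (SE 0.395; edgeR adjusted p = 0.0665). DESeq2 called that value (adjusted p = 0.012), and so did edgeR without the filter on low counts (adjusted p = 0.0209). The red cell sums given for Car1 apply to Car2 too, which red cells also express.

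Car4, a carbonic anhydrase anchored to the outer face of the apical membrane, took different courses in the genotypes. In WT mice the libraries held 251, 431 and 373 CPM in NN, 546, 369.7 and 241.5 in NP, then 66.1, 189.7 and 82.5 in PP. In KO mice they held 96.8 and 193 CPM in NN, 107, 329 and 159 in NP, then 403, 262 and 308 in PP. PP was the lowest condition in WT and, against NN, the higher one in KO mice, without overlap in either case. Car4 fell in WT PP against NN (log2 fold change -1.64, SE 0.46; edgeR adjusted p = 0.0171) and against NP (-1.77, SE 0.46; adjusted p = 0.0347). In KO mice the value against NN was 1.16 (SE 0.52; adjusted p = 0.182). The WT call against NN was lost without WT NN replicate 2 or WT PP replicate 10 or 12, with adjusted p up to 0.086. The call against NP was lost without WT NP replicate 7 or 8 or WT PP replicate 10 or 12 (adjusted p up to 0.216) and when only the groups compared were fitted.

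Among the sodium transport genes, Fxyd4 (also called CHIF, a corticosteroid-induced FXYD protein of colon and kidney that raises the sodium pump's affinity for sodium) changed most. WT libraries held 203, 387 and 74.9 CPM in NN, 271.5, 115 and 68.8 in NP, then 1.99, 14.7 and 4.63 in PP. KO libraries held 86.8 and 106 CPM in NN, 16.6, 92.9 and 54.3 in NP, then 2.27, 0.213 and 21.5 in PP. The PP libraries lay below all NN libraries in each genotype and, in WT mice, below all NP libraries. KO PP replicate 24 overlapped NP. In KO PP replicate 23 only 8 counts were left. Fxyd4 fell in WT PP against NN by 4.96 on the log2 scale (SE 1.19; edgeR adjusted p = 0.00694), and the call held without each of the 6 libraries. Against NP it fell by 4.42 (SE 1.16; adjusted p = 0.0377), a call that held only when WT PP replicate 11 was the library left out (adjusted p up to 0.206 without another). In KO mice PP against NN gave -3.60 (SE 1.17; adjusted p = 0.0586) and PP against NP -2.78 (SE 1.08; adjusted p = 0.229). The first of these Fxyd4 values was called by DESeq2 (adjusted p = 0.0422) and without the filter on low counts (adjusted p = 0.0161).

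Scnn1a, the alpha subunit of the epithelial sodium channel, was a low transcript in every group. WT libraries held 39.2, 23.6 and 26.9 CPM in NN, 23.7, 18.5 and 18.99 in NP, then 4.08, 9.87 and 8.62 in PP. KO libraries held 34.4 and 42.5 CPM in NN, 7.33, 16.8 and 19.5 in NP, then 14.1, 3.41 and 9.00 in PP. PP lay below NN in both genotypes without overlap. PP against NN fell by 1.99 in WT (log2, SE 0.48; edgeR adjusted p = 0.00675), in the full set and without each of the 6 libraries, and by 2.12 in KO mice (SE 0.51; adjusted p = 0.0121). The KO call was lost without either KO NN library (adjusted p up to 0.099).

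Slc9a3, the sodium-proton exchanger NHE3 of the brush border, passed no comparison in the main test, as was also true of Slc26a3 and Guca2b. It stood at 10.5, 1.51 and 3.86 CPM in WT NN, 6.45, 6.96 and 18.4 in WT NP, and 4.81, 22.5 and 8.80 in WT PP. In KO mice it stood at 2.34 and 11.7 CPM in NN, 15.7, 8.29 and 3.70 in NP, then 53.0, 8.24 and 8.74 in PP. These libraries overlapped between all conditions, and 1 library, KO PP replicate 22, held 53.0 CPM where the other 16 held at most 22.5. The log2 fold change of PP against NN was 1.19 (SE 0.87; edgeR adjusted p = 0.344) in WT and 1.73 (SE 1.01; adjusted p = 0.329) in KO mice.

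Slc26a3, the chloride-bicarbonate exchanger whose loss causes chloride diarrhoea, stood at 361.5, 222 and 290.0 CPM in WT NN. It held 398, 281 and 121.5 CPM in WT NP and 95.2, 196 and 77.5 in WT PP. KO libraries held 218 and 561 CPM in NN, 147.5, 379.8 and 314 in NP, then 182, 137.5 and 226 in PP. In WT mice PP lay below NN without overlap, while in KO mice PP and NN overlapped. The log2 fold change of PP against NN was -1.24 (SE 0.47; edgeR adjusted p = 0.0697) in WT and -1.10 (SE 0.51; adjusted p = 0.202) in KO mice. DESeq2 called the WT value (adjusted p = 0.04), and so did edgeR without the filter on low counts (adjusted p = 0.0426).

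Aqp8, a water channel of the colonocyte, fell in PP in both genotypes. WT libraries held 65.0, 151 and 104 CPM in NN, 138, 79.1 and 83.7 in NP, then 8.02, 36.9 and 15.6 in PP. KO libraries held 50.3 and 105 CPM in NN, 15.98, 73.7 and 45.6 in NP, then 10.2, 14.02 and 11.6 in PP. Every PP library lay below every NN and NP library of its genotype. PP against NN fell by 2.40 in WT (log2, SE 0.55; edgeR adjusted p = 0.00535), also without each of the 6 libraries, and by 2.70 in KO mice (SE 0.59; adjusted p = 0.00669). PP against NP fell by 2.31 in WT mice (SE 0.55; adjusted p = 0.0232), and the KO value was -1.91 (SE 0.55; adjusted p = 0.0822). DESeq2 called that KO value (adjusted p = 0.0165). So did edgeR without the filter on low counts (adjusted p = 0.0254) and with only the groups compared (adjusted p = 0.0485). The KO call against NN was lost without KO NN replicate 14 (adjusted p = 0.108), and the WT call against NP without WT NP replicate 7 or 9 or WT PP replicate 10 or 12 (adjusted p up to 0.143).

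Guanylin, from Guca2a, had the smallest adjusted p of the members in WT PP against NN and was the member that DSS alone lowered in WT mice. WT libraries held 2642, 3842 and 3148 CPM in NN, 1069, 847 and 956 in NP, then 419, 587 and 552 in PP. KO libraries held 1089 and 1750 CPM in NN, 878, 787.5 and 835 in NP, then 393, 278 and 849 in PP. In WT mice the 3 conditions formed separate steps, while KO NN libraries already lay below all WT NN libraries. NP against NN fell by 1.75 in WT mice (log2, SE 0.34; edgeR adjusted p = 0.00923), and without each of the 6 libraries in turn the adjusted p reached at most 0.0499. PP against NN fell by 2.63 in WT (SE 0.35; adjusted p = 6.12e-05), again without each of the 6 libraries, and by 1.49 in KO mice (SE 0.36; adjusted p = 0.0131). The KO call was lost without KO NN replicate 14 or KO PP replicate 22 or 23 (adjusted p up to 0.213) and when only the groups compared were fitted.

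Uroguanylin, from Guca2b, lies 17135 bases from Guca2a on chromosome 4 and passed neither comparison of PP against NN, where Guca2a was called in both genotypes. WT libraries held 15.3, 45.7 and 19.5 CPM in NN, 12.0, 10.8 and 12.1 in NP, then 15.8, 22.3 and 18.2 in PP. KO libraries held 11.9 and 7.79 CPM in NN, 15.5, 14.3 and 10.6 in NP, then 20.8, 13.9 and 28.6 in PP. The KO PP libraries all lay above both KO NN libraries, whereas in WT mice NN and PP overlapped. In WT mice all NP libraries lay below all NN libraries for Guca2b, as they did for Guca2a. PP against NN gave -0.51 (SE 0.39; edgeR adjusted p = 0.358) in WT and 1.10 (SE 0.45; adjusted p = 0.136) in KO mice. DESeq2 called the latter (adjusted p = 0.047), and also called NP against NN in WT mice, at -1.25 (adjusted p = 0.0354), where edgeR gave -1.20 (SE 0.39; adjusted p = 0.128).

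The stretches before the start sites are shown for this pair of neighbours and for Aqp8, a member that fell in both genotypes. Each runs from 120 bases before the RefSeq start site (GRCm38.p6) through its first 5 bases. Guca2a lies at chr4:119637612-119637736 on the plus strand, Guca2b at chr4:119658941-119659065 on the minus strand and Aqp8 at chr7:123462174-123462298 on the plus strand. Capitals mark matches to TTTATNG, a form of the site bound by CDX factors of the intestinal epithelium, or to TNTAAA, a string like the core promoter's TATA box, which was searched in the 120 bases before the start site after the stretches had been seen.
Guca2a: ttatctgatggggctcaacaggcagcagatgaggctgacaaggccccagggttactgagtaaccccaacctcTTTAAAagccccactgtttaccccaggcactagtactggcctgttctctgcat
Guca2b: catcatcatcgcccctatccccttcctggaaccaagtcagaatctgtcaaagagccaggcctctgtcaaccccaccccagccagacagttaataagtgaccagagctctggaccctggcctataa
Aqp8: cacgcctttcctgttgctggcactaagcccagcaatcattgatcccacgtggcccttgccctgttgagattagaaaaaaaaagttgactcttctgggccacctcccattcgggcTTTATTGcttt
Guca2a has the TATA-like string 48 bases before its start site, Aqp8 has the CDX form beginning 6 bases before its start site, and the Guca2b stretch has neither. Promoter windows of 250 bases before and 50 after the start were held for 7 members (Guca2a, Guca2b, Fxyd4, Aqp8, Car4, Slc26a3 and Slc9a3). The CDX form, on either strand, was in 2 of those 7 (Aqp8 and Car4) and in the windows of 12.5% of all genes. The string TNTAAA, on either strand, was in 3 of 7 (Guca2a, Fxyd4 and Slc26a3) and in 20.5% of all genes. CAAAGTCCA, a form of the HNF4 site, was in 0 of 7 and in 0.555% of all genes. The TTTAAA form of the TATA-like string reads the same on both strands, and these matches say nothing of binding.

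Because the pan-epithelial sum took a smaller part of the PP libraries, the members were also set against its 9 markers. Other epithelial lists, given further on, differed in course. On this scale a value of 0 means that a gene kept pace with the sum of these 9 markers, called epithelial RNA below. The scale moves all genes: in PP against NN their median log2 fold change was 1.72 in WT and 1.08 in KO mice, against 0.27 and 0.06 with TMM. Genes called higher and lower numbered 8157 and 110 in WT mice where TMM gave 2169 and 1240, and 2766 and 89 in KO mice where TMM gave 1106 and 640. The members' median was -0.19 in WT and -0.52 in KO mice. Of the 10 members 2 were called higher and 2 lower in each genotype, beside 48.1% of genes higher and 0.649% lower in WT and 16.3% and 0.525% in KO mice.

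Fxyd4 and Guca2a fell relative to epithelial RNA in WT mice. Fxyd4 stood at 12.1, 18.4 and 4.04 counts per 1000 pan-epithelial counts in WT NN and at 0.361, 1.59 and 0.718 in WT PP, a log2 fold change of -3.69 (SE 1.01; edgeR adjusted p = 0.00732). KO mice had 5.38 and 6.63 per 1000 in NN and 0.281, 0.0355 and 1.84 in PP (-3.05, SE 1.03; adjusted p = 0.0511). Guca2a stood at 157, 182 and 169.7 per 1000 in WT NN, 83.0, 69.0 and 89.5 in WT NP and 75.9, 63.5 and 85.6 in WT PP. The WT NP and PP libraries overlapped and all lay below NN. PP against NN was -1.18 (SE 0.26; adjusted p = 0.002), and this call, like that of Fxyd4, held without each of the 6 libraries. NP against NN was -1.08 (SE 0.26; adjusted p = 0.0279) in a comparison where 0.0472% of genes fell and 4.74% rose. That call was lost without WT NN replicate 2 or WT NP replicate 7 or 8. The KO value of Guca2a, PP against NN, was -0.66 (SE 0.29; adjusted p = 0.121).

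Aqp8 fell relative to epithelial RNA in KO PP against NN (-1.66, SE 0.56; edgeR adjusted p = 0.0499) and in WT PP against NP (-1.67, SE 0.52; adjusted p = 0.0471). The first of these calls held without KO PP replicate 23 and was lost without any other library, and the second held only without WT PP replicate 11. Fxyd4 fell in that WT comparison as well (-3.78, SE 1.01; adjusted p = 0.0247), with the call lost without WT NP replicate 7 or 8 or WT PP replicate 10 or 12. In WT PP against NN the Aqp8 value was -1.08 (SE 0.51; adjusted p = 0.0859). Car2 fell in KO PP against NN (-1.43, SE 0.37; adjusted p = 0.0154), though not without either KO NN library, and stood at -0.09 (SE 0.34; adjusted p = 0.847) in WT mice. Car1 stood at 609, 341 and 472 counts per 1000 in WT NN and at 833, 655 and 637.5 in WT PP, higher in PP without overlap (0.58, SE 0.40; adjusted p = 0.223), while its KO libraries overlapped (-0.38, SE 0.44; adjusted p = 0.572). The Slc26a3 values were smaller than their errors, at 0.08 (SE 0.43; adjusted p = 0.89) and -0.17 (SE 0.48; adjusted p = 0.838). Scnn1a stood at -0.64 (SE 0.46; adjusted p = 0.246) in WT and -1.22 (SE 0.50; adjusted p = 0.105) in KO mice.

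Guca2b rose on the epithelial scale where it had passed no test on the other. WT libraries held 0.909, 2.17 and 1.05 counts per 1000 pan-epithelial counts in NN, 0.933, 0.878 and 1.13 in NP, then 2.87, 2.41 and 2.82 in PP. KO libraries held 0.737 and 0.487 in NN, 1.42, 1.28 and 0.819 in NP, then 2.58, 2.31 and 2.45 in PP. Each PP library lay above each NN and NP library of its genotype. PP against NN was 0.97 (SE 0.38; edgeR adjusted p = 0.0406) in WT and 2.00 (SE 0.45; adjusted p = 0.00676) in KO mice. Over all genes the medians there were 1.72 and 1.08, and 48.1% and 16.3% of genes rose. The WT value of Guca2b thus lay below the median of all genes and the KO value above it. PP against NP was 1.46 (SE 0.38; adjusted p = 0.0211) in WT mice, where 10.9% of genes rose and 0.124% fell. The WT call against NN was lost without WT NN replicate 1 or 3 or WT PP replicate 10 or 12, the KO call without either KO NN library, and the WT call against NP held only without WT PP replicate 11.

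Slc9a3 and Car4 were higher relative to epithelial RNA in 1 genotype each by the test, PP against NN. On this scale 48.1% of all genes rose in WT and 16.3% in KO mice. Slc9a3 stood at 0.622, 0.0716 and 0.208 counts per 1000 in WT NN and 0.872, 2.43 and 1.36 in WT PP (log2 fold change 2.37, SE 0.93; edgeR adjusted p = 0.0438). That call was lost without WT NN replicate 2 or 3 or WT PP replicate 11 or 12. The KO value was 2.72 (SE 1.10; adjusted p = 0.098). Car4 stood at 6.00 and 12.1 per 1000 in KO NN and at 49.9, 43.7 and 26.4 in KO PP (2.15, SE 0.50; adjusted p = 0.00881), a call lost without KO NN replicate 13. In WT mice Car4 was -0.29 (SE 0.41; adjusted p = 0.567). Whether these genotypes differed was tested only as the MCJ effect described further on.

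**Figure D2:**
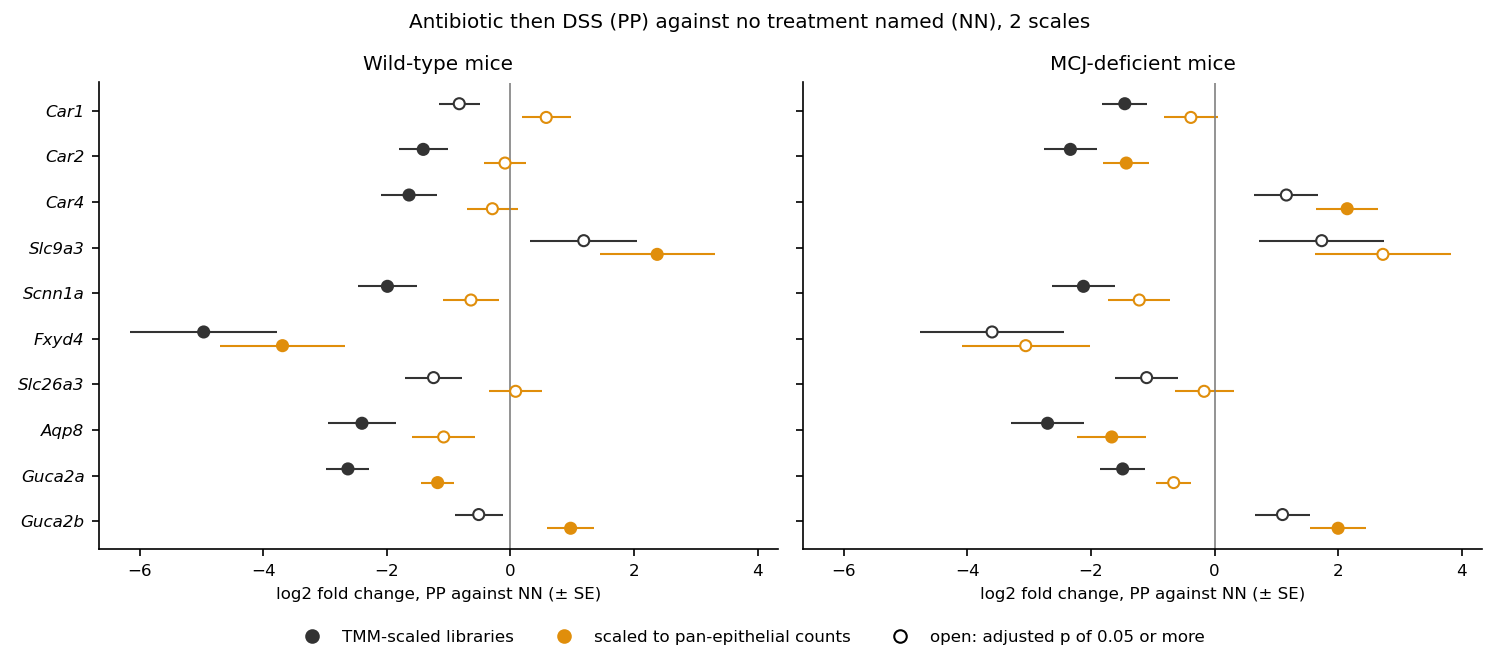
Log2 fold change (± SE) of PP against NN for the 10 members in wild-type (left) and MCJ-deficient mice (right), with libraries scaled by TMM (dark) or to pan-epithelial counts (orange); filled points have an adjusted p under 0.05. Fxyd4 lies furthest below 0 on both scales, and Guca2b changes sign with the scale in wild-type mice, from -0.51 to 0.97.

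**Figure D3:**
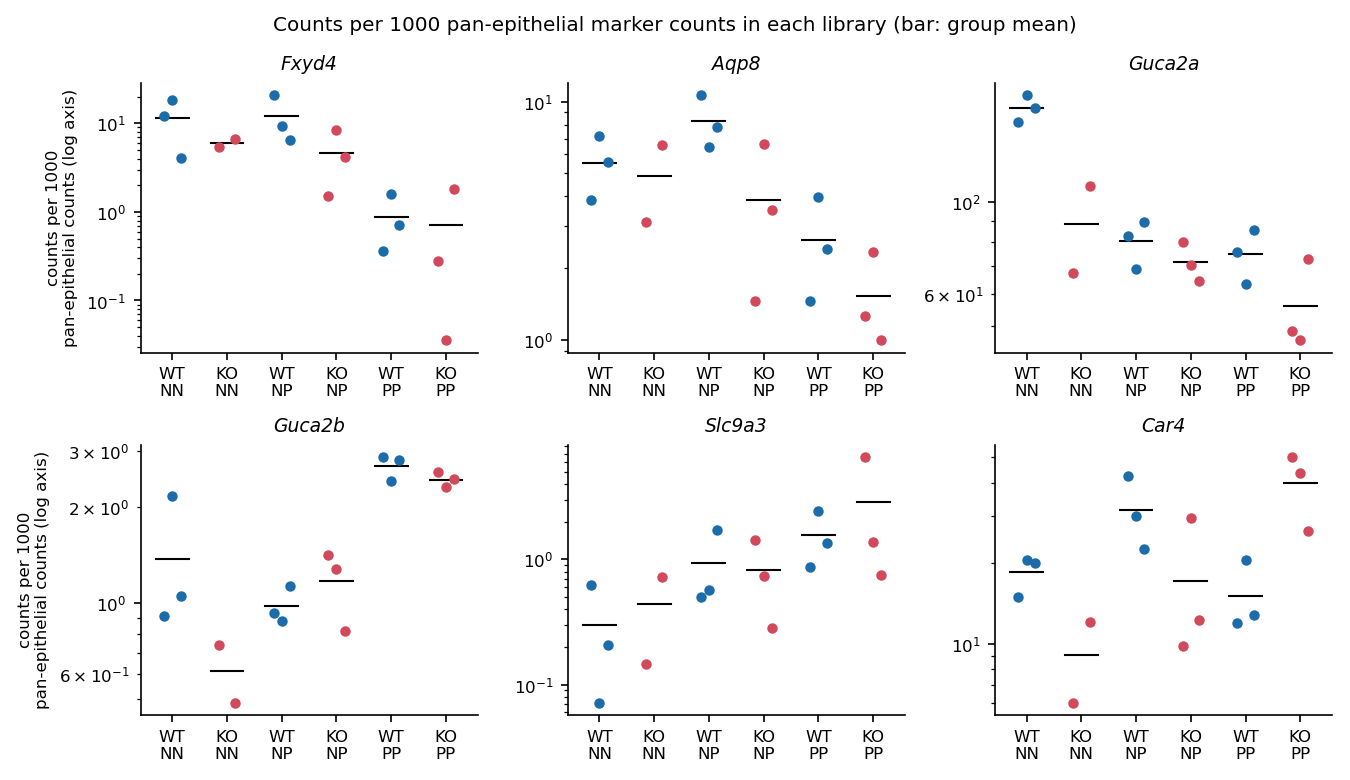
Counts per 1000 pan-epithelial marker counts (log axis) in each library for 6 members; points are libraries, bars are group means, blue is wild-type and red is MCJ-deficient. Wild-type Guca2a drops from 157 to 182 in NN to 63.5 to 89.5 in NP and PP, and Guca2b is highest in PP.

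Sums of other epithelial lists, which were not tested, differed in course. Differentiated colonocyte markers outside the members (6 genes such as Krt20 and Phgr1) summed to 3655 ± 353 CPM in WT NN and 2824 ± 799 in WT PP. In KO mice the sums were 3539 ± 899 and 3449 ± 708, and the libraries overlapped in both genotypes. The course of the sum need not hold for each gene: Phgr1 had a Pearson correlation of 0.97 with Guca2a over the 17 libraries. Goblet cell markers (7 genes) summed to 4477 ± 1856 CPM in WT NN and 3271 ± 960 in WT PP. In KO mice the goblet sums were 2214 ± 535 and 2789 ± 1071, and the libraries again overlapped in both genotypes. Crypt progenitor and cycling markers (6 genes, Olfm4 at 0 in NN) summed to 13.6 ± 7.40 CPM in WT NN and 86.5 ± 31.5 in WT PP, and to 27.7 ± 1.29 and 65.5 ± 36.1 in KO mice. Factors of the posterior colon (4 genes, led by Hoxb13) summed to 170 ± 31.3 CPM in WT NN and 12.8 ± 11.2 in WT PP, and to 174 ± 18.3 and 16.7 ± 12.8 in KO mice. Hoxd12 was at 0 in both PP groups and Hoxd11 in KO PP. Scnn1a and Fxyd4 are typical of the distal colon. The part of the sampled segment in the members' values was not tested.

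MCJ deficiency moved no member past the threshold in any condition. Without treatment (NN) the edgeR test called 0 of 13559 genes in either direction (0%). After antibiotic and DSS (PP) it called 0 of 14556 (0%). After DSS alone (NP) 142 of 14452 genes were higher (0.983%) and 3 lower (0.0208%), with 0 of 10 members among them. Of the members, 3 reached an unadjusted p under 0.05 without treatment, 3 after DSS and 2 after antibiotic and DSS. Over all genes the numbers at that level were 1124 of 13559, 1335 of 14452 and 758 of 14556. DESeq2 called 2 members in NN, both lower, in a test that called 22 genes higher and 296 lower of 17625. Without the filter on low counts edgeR called 2 members lower in NP, among 308 genes higher and 45 lower of 19247. DESeq2 called 0 members in NP and 0 in PP. For KO against WT the median log2 fold change of the members was -0.40 (NN), -0.20 (NP) and 0.20 (PP), while all genes gave 0.08, 0.03 and 0.01. These medians moved with single libraries. The NN median was -0.002 without KO NN replicate 13 and -1.15 without replicate 14. The PP median was -0.34 without KO PP replicate 24 and 0.48 without replicate 23. On the pan-epithelial scale the PP median was -0.225, beside -0.25 for all genes.

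The members with an unadjusted p under 0.05 without treatment were Car4, Guca2a and Guca2b, and after DSS Car4, Fxyd4 and Aqp8. After antibiotic and DSS they were Car1 and Car4. Car1 was lower in the KO than in the WT libraries of PP without overlap (-0.84, SE 0.36; edgeR adjusted p = 0.938). Car4 was lower in KO than in WT mice in NN (-1.34, SE 0.36; edgeR adjusted p = 0.572) and NP (-0.96, SE 0.40; adjusted p = 0.469), and higher in PP (1.56, SE 0.44; adjusted p = 0.938). The libraries of the genotypes overlapped for Car4 in NP and were apart in NN and PP. The difference between the effects was 2.80 for PP against NN (SE 0.695; edgeR adjusted p = 0.238) and 2.48 for PP against NP (SE 0.64; adjusted p = 0.381). DESeq2 called both of these differences, at 2.90 (adjusted p = 0.0071) and 2.47 (adjusted p = 0.0419). Of 20494 genes it called 90 higher and 102 lower for the first, and 34 and 56 for the second. In NN the edgeR values of Guca2a and Guca2b were -1.23 (SE 0.33; adjusted p = 0.572) and -1.49 (SE 0.55; adjusted p = 0.572), with both KO libraries below the 3 WT libraries for each gene. DESeq2 called Car4 (adjusted p = 0.00489) and Guca2a (adjusted p = 0.000439) in NN. In NP the edgeR values of Fxyd4 and Aqp8 were -1.48 (SE 0.57; adjusted p = 0.424) and -1.15 (SE 0.44; adjusted p = 0.417). These are the 2 genes called there without the filter on low counts, with adjusted p of 0.0148 and 0.0415. No member passed the edgeR test for any difference of the MCJ effect between conditions. Of all 16958 genes, these tests called 0 for NP minus NN and 0 for PP minus NP. For PP minus NN they called 4 higher and 5 lower.

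**Figure D4:**
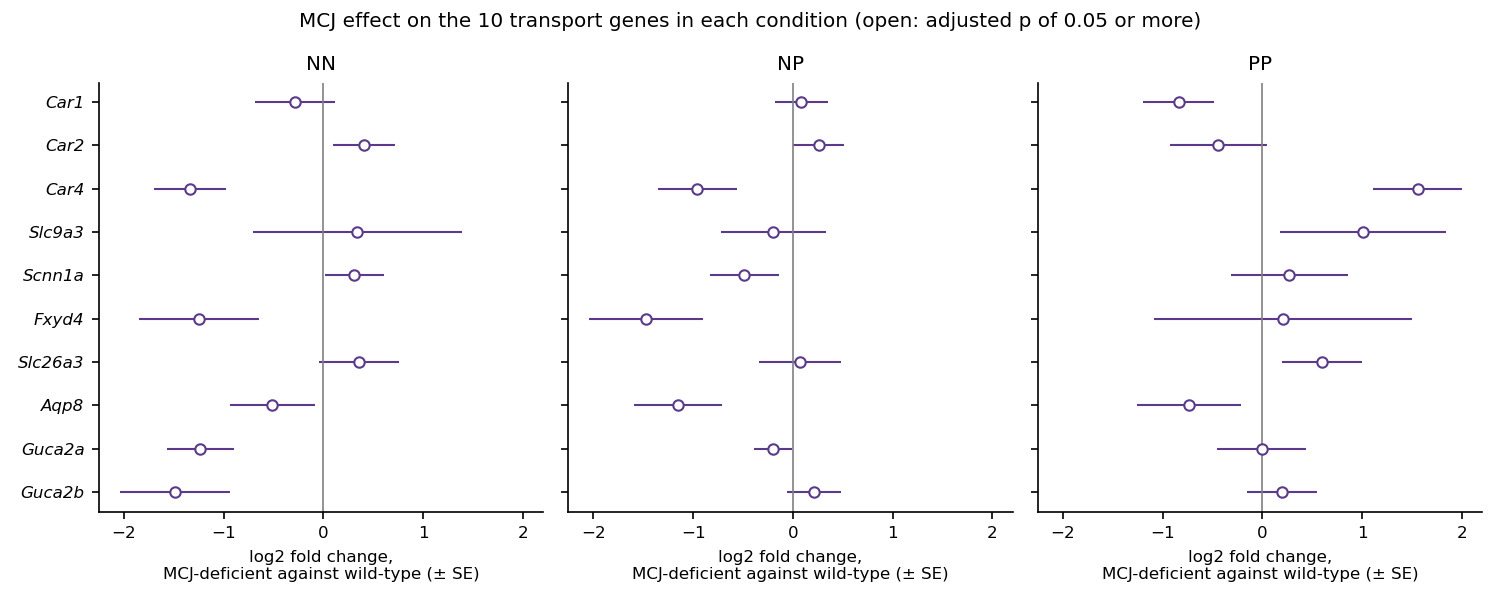
Log2 fold change (± SE) of MCJ-deficient against wild-type libraries for the 10 members in NN, NP and PP; open points have an adjusted p of 0.05 or more, which holds for all of them. Car4 lies at -1.34, -0.96 and 1.56 in the 3 conditions.

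A wider list of 51 other electrolyte and water transport genes gave the setting. In PP against NN 9 of the 51 rose and 5 fell in WT mice, and 6 rose and 5 fell in KO mice. Among all genes 12.8% rose and 7.31% fell in WT and 6.52% and 3.77% in KO mice. The list's medians were -0.28 and -0.07 (log2), beside -1.53 and -1.47 for the 10 members. Members and list were chosen with earlier results of these data known, so this gap is only a description. The edgeR test for a difference between the genotypes in this response called 0 of the 51 (5 at an unadjusted p under 0.05), and DESeq2 called 2. Over all 16958 genes that edgeR test called 4 higher and 5 lower, with 1400 at the unadjusted level. DESeq2 called 90 higher and 102 lower of 20494. Fxyd5, an FXYD protein of epithelia and leukocytes, rose from 2.04 ± 1.86 to 232 ± 185 CPM in WT mice (log2 fold change 6.82, SE 0.83; edgeR adjusted p = 2.73e-05) and from 0.844 ± 0.0785 to 284 ± 102 CPM in KO mice (8.39, SE 1.08; adjusted p = 8.82e-05). Its rise went with that of the macrophage markers given above, and the part of leukocyte RNA in it was not tested. The chloride channel regulator family gene Clca4b rose by 3.48 (SE 0.54; adjusted p = 0.000251) in WT and 6.32 (SE 0.74; adjusted p = 4.33e-05) in KO mice. Atp1b3, a beta subunit of the sodium pump, rose in WT mice (1.66, SE 0.36; adjusted p = 0.00366) and in KO mice (2.38, SE 0.43; adjusted p = 0.0017). The kinase Sgk1, which activates the epithelial sodium channel, rose in KO mice (2.37, SE 0.34; adjusted p = 0.000218) and in WT mice (0.90, SE 0.28; adjusted p = 0.0306). The WT call of Sgk1 held only without WT PP replicate 11 (adjusted p up to 0.173 without another library). The KO value of Atp1b3 and the WT value of Sgk1 were added after their values were seen.

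Genes of the same list that fell included other distal and chloride transport genes. Ano1, a calcium-activated chloride channel, fell by 3.39 (log2, SE 0.54; edgeR adjusted p = 0.00031) in WT and 4.67 (SE 0.59; adjusted p = 7.65e-05) in KO mice. In WT mice the chloride channel Clcn2 fell by 1.66 (SE 0.36; adjusted p = 0.00373), as did Hsd11b2, the enzyme that keeps cortisol-type hormones off the mineralocorticoid receptor, by 1.91 (SE 0.45; adjusted p = 0.00577). Relative to pan-epithelial counts Clcn2 stood at -0.28 (adjusted p = 0.536) and Hsd11b2 at -0.52 (adjusted p = 0.272). In KO mice Atp12a, the colonic proton-potassium pump, fell by 3.87 (SE 0.61; adjusted p = 0.000485), and Atp1b1, a beta subunit of the sodium pump, by 1.20 (SE 0.29; adjusted p = 0.0136). Atp1b1 was not called without KO NN replicate 13 or 14 or KO PP replicate 23 (adjusted p up to 0.106), nor on the epithelial scale (-0.26; adjusted p = 0.548).

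The other comparisons called fewer genes of this list. Over all genes, NP against NN raised 2.25% and lowered 0.195% in WT mice, and raised 2.04% and lowered 0.0354% in KO mice. PP against NP raised 3.49% and lowered 0.926% in WT mice, and raised 1.34% and lowered 0.389% in KO mice. For the MCJ effect in NP these shares were 0.983% and 0.0208%. NP against NN raised Clca4b in WT (3.28, SE 0.53; edgeR adjusted p = 0.00313) and KO mice (2.54, SE 0.60; adjusted p = 0.0315) and lowered none of the 51. It also raised Slc26a6, an anion exchanger with 0 counts in the WT NN libraries and 81 in WT NP (at least 17.03-fold higher, taking 3 counts summed over the 3 libraries as the floor), and Fxyd5 in KO mice. Of these calls Clca4b in WT mice held without each library. Without some 1 library the adjusted p reached 0.562 for Clca4b in KO mice, 0.0954 for Slc26a6 and 0.0692 for Fxyd5. PP against NP raised 3 and lowered 3 in WT mice, and raised 2 and lowered 2 in KO mice, with Atp12a and Ano1 among the lowered genes in both. Each of those 4 calls was lost without at least 1 library (adjusted p up to 0.144). The MCJ effect in NP raised Fxyd5 alone (2.24, SE 0.36; adjusted p = 0.0124), a call lost without WT NP replicate 7 or 8 or KO NP replicate 20 or 21 and in the fit of all 17 libraries (adjusted p = 0.484).

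Across the 17 libraries most members varied together. Pearson correlations of log2 CPM, given as descriptions since the libraries share conditions and epithelial content, reached 0.87 between Fxyd4 and Aqp8, 0.85 between Fxyd4 and Scnn1a and 0.84 between Fxyd4 and Car2. Slc9a3 and Guca2b correlated negatively with most of the others, for example -0.47 between Slc9a3 and Guca2a and -0.30 between Guca2b and Car1. After the group means were subtracted, Car4 and Aqp8 had the highest value (0.87), followed by Fxyd4 and Guca2a (0.78) and by Car4 and Slc26a3 (0.77), while that of Fxyd4 with Aqp8 was 0.45. Guca2a and Guca2b correlated at 0.19 over all libraries and at 0.56 within groups. With the pan-epithelial sum Guca2a correlated at 0.92 and Fxyd4 at 0.88 over all libraries, and Slc9a3 at -0.44. Within groups these values were 0.80, 0.87 and -0.04. With Hoxb13, of the posterior colon list, the values over all libraries were 0.87 for Scnn1a, 0.86 for Aqp8, 0.85 for Fxyd4 and 0.84 for Car2. Slc9a3 (-0.35) and Guca2b (-0.16) went the other way. Within groups the values with Hoxb13 were 0.58, 0.68, 0.63, 0.70, 0.01 and 0.26 in the same order.

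**Figure D5:**
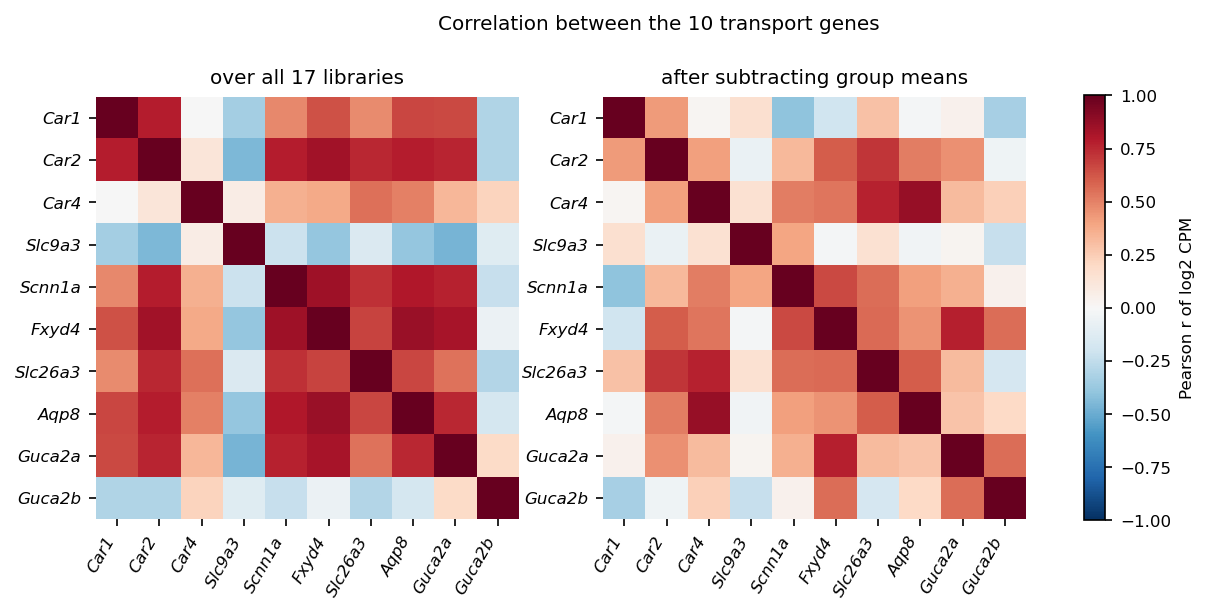
Pearson correlation of log2 CPM between the 10 members over the 17 libraries (left) and after subtraction of the 6 group means (right). Blocks of red on the left join Car2, Scnn1a, Fxyd4, Aqp8 and Guca2a; on the right the pair Car4 and Aqp8 is the darkest.

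The genes most like each member over the 17 libraries, among 6948 other genes with a mean of at least 10 CPM, included metabolic and epithelial genes. Cth (0.93) and Hsd3b3 (0.91) were closest to Car1, and the cytochrome P450 genes Cyp2c68 (0.96) and Cyp2c40 (0.96) to Car2. Car4 was closest to Stk25 (0.81) and Rdh16 (0.80), and Slc26a3 to the mucosal chemokine Ccl28 (0.88) and Msmo1 (0.87). For the sodium genes they were Itih5 (0.98) and B3gnt7 (0.95) with Scnn1a, Klk1b8 (0.96) and the epithelial adhesion molecule Epcam (0.95) with Fxyd4, and Itga6 (0.90) and Lratd2 (0.84) with Slc9a3. Aqp8 was nearest to Eno3 (0.93) and Tnni1 (0.92). Of the peptide genes, Guca2a was nearest to Ech1 (0.97) and the colonocyte gene Phgr1 (0.97), and Guca2b to the goblet cell factor Spdef (0.78) and the goblet cell product Retnlb (0.78). The mean of the 10 standardised members was nearest to Tspan1 (0.96), Sectm1b (0.95), the epithelial lectin Lgals4 (0.95), Cryl1 (0.95) and Pla2g10 (0.95). Epcam and Lgals4 are also in the pan-epithelial sum.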

How the data were processed

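RNA-seq of 17 libraries was analysed from 3 tables of raw counts, 1 per condition, that the authors deposited with 27179 NCBI gene numbers each. Per the submitters' processing notes, CASAVA 1.8.2, FastQC, Trim Galore, STAR 2.5.4, DESeq2 and the build mm10 were used. The counting program, its annotation and its strand setting are not given in the sources used here, so overlapping genes on opposite strands could share reads: Car1, Slc9a3 and Guca2b each overlap 1 pseudogene or lncRNA that has no row in the tables. Symbols came from RefSeq (25275 genes) and GENCODE M21 (18), and 1886 unnamed numbers held 1.39 to 7.32% of a library's counts. Exon lengths came from GENCODE M21, and promoter sequences from RefSeq (GRCm38.p6).

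After filterByExpr and TMM scaling, tests were made with the edgeR 4.0.16 quasi-likelihood test in R 4.3.3, with Benjamini-Hochberg adjustment over all genes tested and calls at an adjusted p under 0.05. Each table gave its own fit for KO against WT, and 1 fit of the 17 libraries gave all other contrasts. SE is the size of the log2 fold change divided by the root of the F statistic. Levels are CPM on TMM-scaled totals, or counts per 1000 counts of 9 pan-epithelial genes. Correlations used log2 CPM with a prior count of 2, in Python 3.11.15. DESeq2 1.42.0, RLE factors, no filter, removal of mitochondrially encoded genes, the pan-epithelial scale, other sets of libraries in the fit and leaving out each library were the alternatives. Leaving out libraries on the pan-epithelial scale was added after seeing the data. The fit was tested on simulated counts with 200 changed genes. Bounds against 0 counts cover counting error only.

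The members and all lists were chosen with earlier results of these data known. All 10 members are named, and of the wider transport list up to 3 genes called in each direction by smallest p. For likeness, the 2 genes nearest each member and the 5 nearest their mean are named. Of the 7 red cell markers, 6 had a row in the tables.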

Additional observations from a re-analysis of the deposited data

How the results depend on the processing

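The counts of members called (of 10) moved by over 1.5 times under these settings. DESeq2 called 2 in the MCJ effect in NN, 2 in NP against NN in WT, 3 in PP against NP in KO, and 1 each (Car4) in the difference of the MCJ effect of PP minus NP and of PP minus NN. Without the filter on low counts 2 were called in the MCJ effect in NP and 3 in PP against NP in KO. Scaled to pan-epithelial counts, 0 were called in PP against NP in KO, and Guca2b in WT PP against NN reversed to 0.97. With only the groups compared, 1 (Scnn1a) was called in NP against NN in KO and 3 in PP against NN in KO. Leaving out 1 library gave 0 to 3 in PP against NP in either genotype, 4 to 7 in PP against NN in WT, 1 to 6 in KO, and 1 in NP against NN in WT. On the pan-epithelial scale this gave 0 to 1 in NP against NN in WT, 0 to 3 in PP against NP in WT, 0 to 1 in KO, 2 to 4 in PP against NN in WT and 0 to 6 in KO. With 2 KO NN libraries, leaving out 1 rests on the assumption that the lone library varies like the others. Where no setting with all libraries called a member, 105 of the 1394 recomputed log2 values changed sign. No paired analysis was made. Replicate numbers are not shared between groups, and the mouse numbers that recur between KO NN and KO NP come without a stated link. Depth was thinnest for Slc9a3, with 31 to 2190 counts per library, and for Fxyd4 in PP, with 8 to 675.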
